A study of Mus musculus with 11 samples.

Results

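Fos, Arc and Nr4a1 are immediate early genes, and their ribosome-associated mRNA was followed here in the hippocampus of sleep deprived and undisturbed mice. They were taken by name, each as 1 transcript of the deposited table: uc007oha.2 for Fos, uc007wfn.2 for Arc and uc007xsv.2 for Nr4a1, which makes 3 of 63244 transcripts. All 3 passed the filter on low counts that left 29599 transcripts for testing. They were compared between the groups, within each group and with each other across the libraries.

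The mice were CaMKII-Cre:Ribotag males aged 2 to 3 months, in which Cre under the CaMKIIα promoter switches on a hemagglutinin-tagged ribosomal protein, Rpl22, so that mRNA on ribosomes of CaMKIIα-expressing neurons can be pulled down from a homogenate of the whole hippocampus (TRAP-Seq). In the SD group, 6 libraries came from mice kept awake by gentle handling for 5 hours from the start of the light phase. In the NSD group, 5 libraries came from mice left undisturbed and killed at the same time of day. Each library pooled 2 mice, and both groups carried the Cre and the tagged allele and had been accustomed to handling. The libraries are named by their labels, with a number or, for NSDB and SDD, a letter.

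Immediate early genes are transcribed soon after a neuron is activated, from transcription factors that are already in the cell, such as CREB and SRF. Fos encodes a basic leucine zipper protein that pairs with Jun proteins to form the transcription factor AP-1. Arc encodes a cytoskeleton-associated protein of dendrites that takes part in the removal of AMPA receptors from synapses. Nr4a1 encodes an orphan nuclear receptor that acts as a transcription factor. All are widely used in the hippocampus as markers of recent neuronal activity.

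The start sites of Fos and Nr4a1 are shown because both genes are classical targets of CREB, whose site is the cAMP response element. The RefSeq table of 300-base windows, from 250 bases before to 50 after a start site on build GRCm38.p6, held a window for 2 of the 3 genes, and Arc had none. The Fos window lies on the plus strand at chr12:85473640-85473939 and the Nr4a1 window on the plus strand at chr15:101266596-101266895. Capitals mark the short cAMP response element, TGACG or its reverse complement CGTCA, and the TATA motif TATAAA.
Fos: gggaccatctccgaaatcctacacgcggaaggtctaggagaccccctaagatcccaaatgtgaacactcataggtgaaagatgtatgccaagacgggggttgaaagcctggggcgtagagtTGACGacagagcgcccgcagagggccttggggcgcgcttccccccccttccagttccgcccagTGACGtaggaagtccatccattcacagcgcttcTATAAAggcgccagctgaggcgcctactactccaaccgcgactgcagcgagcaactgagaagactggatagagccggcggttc
Nr4a1: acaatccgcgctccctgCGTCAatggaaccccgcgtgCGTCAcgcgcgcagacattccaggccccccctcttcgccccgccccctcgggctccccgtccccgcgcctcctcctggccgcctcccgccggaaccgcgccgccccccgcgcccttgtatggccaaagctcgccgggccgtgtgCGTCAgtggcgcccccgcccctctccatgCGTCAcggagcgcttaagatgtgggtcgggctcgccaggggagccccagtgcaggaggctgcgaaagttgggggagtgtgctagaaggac
The Fos window held TGACG at 2 places, with first bases at -129 and -66 from the start site, and TATAAA at -33. Nr4a1 held CGTCA at 4 places, with first bases at -233, -213, -69 and -40, and no TATAAA. Searched on both strands, TGACG was found in 20.8% of the 32851 promoter windows of the mouse table, at 2 or more places in 5.01% and at 4 or more in 0.231%. TATAAA was found in 13.6% of them. Neither window held the full palindrome TGACGTCA, which contains TGACG on each strand and was in 1.79% of all windows, nor the CArG box that SRF binds (1.63%), nor AAAGGTCA, the element that Nr4a1 protein binds (1.51%). These are matches of letters in the reference sequence, and no binding was measured. Bases farther from the start sites and other variants of these motifs were not searched, so a motif not found here may lie elsewhere.

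On the genome, GENCODE vM21 (build GRCm38) places Fos on chr12:85473890-85477273 on the plus strand with 4 transcripts. Arc lies on chr15:74669083-74672570 on the minus strand with 2 transcripts, and Nr4a1 on chr15:101254269-101274795 on the plus strand with 4. None of them overlaps another annotated gene. Reads that fitted several transcripts were left uncounted in the deposited table, where their tally held 37.2% to 51.95% of the reads of a library. The share of exonic bases common to several GENCODE transcripts was 36.5% of 2352 bases for Fos, 99.8% of 3057 for Arc and 70.6% of 3509 for Nr4a1. The counts were made on UCSC transcripts, so these shares only show that different parts of each gene could be counted. For that reason levels were compared between libraries and not between genes.

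The libraries held 22074914 to 29549339 reads on transcripts, and the 3 genes held 317 to 1576 reads (Fos), 170 to 443 (Arc) and 2492 to 6316 (Nr4a1) in each. Some libraries stood apart in other measures. The share of reads outside annotated features ran from 9.97% to 27.6%, with NSD2 and SD1 the highest at 27.6% and 21.1%. Inhibitory neuron markers, of which Gad2 and Slc32a1 could be named of 6, summed to 22.3 to 101.1 CPM (counts scaled to library size and expressed per 1000000) in NSD, with NSD4 at 85.2 and NSDB at 101.1, and to 14.9 to 46.8 in SD. Markers of the septum, 3 of 5 named, summed to 5.09 to 28.4 CPM in NSD and 2.90 to 10.99 in SD. Of 5 excitatory neuron markers only 1 could be named, the transcript uc008fbh.2 of Camk2a, at 2.32 to 2.76 CPM in NSD and 1.48 to 2.31 in SD. Every SD library was below every NSD library, but the highest SD value was 2.315 CPM and the lowest NSD value 2.317. Reads shared between transcripts were left uncounted, so this low value is not the level of the gene or a measure of excitatory neuron content. No named marker was at 0 in any library. No marker of astrocytes or microglia could be named, and the 1 named oligodendrocyte marker of 3 ran from 167.4 to 194.8 CPM in NSD and 178.2 to 229.8 in SD. Markers could be named mainly where their p values in these same data were small, so gaps between the groups in these sums are selected for difference. The part that these differences between libraries play in the results was not tested, and results are given below with and without the libraries concerned.

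Does sleep deprivation move these genes on ribosomes? The mean level of each was higher in SD than in NSD, by 2.13-fold for Fos, 1.65-fold for Arc and 1.49-fold for Nr4a1. Of the 6 SD libraries, 5 lay above all NSD libraries for Fos and Arc and 4 for Nr4a1, and SD1 did so for none. In the edgeR quasi-likelihood test across all transcripts, 0 of the 3 passed a false discovery rate (FDR) of 0.05, with Fos just outside it. Across the transcriptome 0.0439% of transcripts passed with a higher level in SD (13 of 29599), while 2.54% (753) did so at an unadjusted p under 0.05, as all 3 genes did. More CaMKIIα neurons bearing a transcript and more of it in each neuron cannot be told apart in such pools.

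Fos had the largest difference. Its level in NSD was 26.3 CPM in NSD2, 14.8 in NSD3, 22.04 in NSD4, 33.8 in NSD5 and 13.2 in NSDB. In SD it was 29.4 CPM in SD1, 54.3 in SD2, 50.0 in SD3, 43.7 in SD4, 47.8 in SD6 and 56.6 in SDD. The 5 SD libraries other than SD1 were above every NSD library, and SD1 was above all but NSD5. The means were 22.04 ± 8.49 CPM (standard deviation, n = 5) in NSD and 47.0 ± 9.79 (n = 6) in SD. The log2 fold change was 1.09 with a standard error of 0.201 and a 95% interval of 0.70 to 1.49 (edgeR quasi-likelihood test, FDR = 0.052), and Fos ranked 17 among the tested transcripts in that test. The two-sided exact permutation test of the CPM over all ways of dividing 11 libraries into 5 and 6 gave p = 0.00649, where the smallest value possible was 0.00216.

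Arc, the effector at synapses among the 3, was the least abundant in counts. It stood at 8.73 CPM in NSD2, 7.35 in NSD3, 6.87 in NSD4, 12.9 in NSD5 and 8.04 in NSDB. In SD it stood at 7.81 CPM in SD1, 18.7 in SD2, 14.1 in SD3, 15.3 in SD4, 15.3 in SD6 and 15.6 in SDD. All SD libraries but SD1 were above every NSD library, and SD1 lay among the NSD libraries, above only NSD3 and NSD4. The means were 8.79 ± 2.43 CPM in NSD and 14.5 ± 3.61 in SD, a log2 fold change of 0.72 with a standard error of 0.187 and a 95% interval of 0.35 to 1.09. The edgeR quasi-likelihood FDR was 0.301 (rank 103), and the exact permutation p was 0.0195.

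Nr4a1, the nuclear receptor, was measured with the most counts. Its level was 128.4 CPM in NSD2, 107.7 in NSD3, 134.6 in NSD4, 179.5 in NSD5 and 104.0 in NSDB. In SD it was 121.3 CPM in SD1, 231.5 in SD2, 164.5 in SD3, 234.6 in SD4, 193.8 in SD6 and 227.0 in SDD. Here the groups overlapped more: 4 of 6 SD libraries were above every NSD library, SD3 was below NSD5, and SD1 was above only NSD3 and NSDB. The means were 130.8 ± 30.2 CPM in NSD and 195.4 ± 45.3 in SD, a log2 fold change of 0.58 with a standard error of 0.161 and a 95% interval of 0.26 to 0.90. By the edgeR quasi-likelihood test FDR was 0.407 (rank 141), and by exact permutation p was 0.0325. The genes were chosen with earlier results of these data known, so these single-gene p values are not those of genes picked blind.

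**Figure D1:**
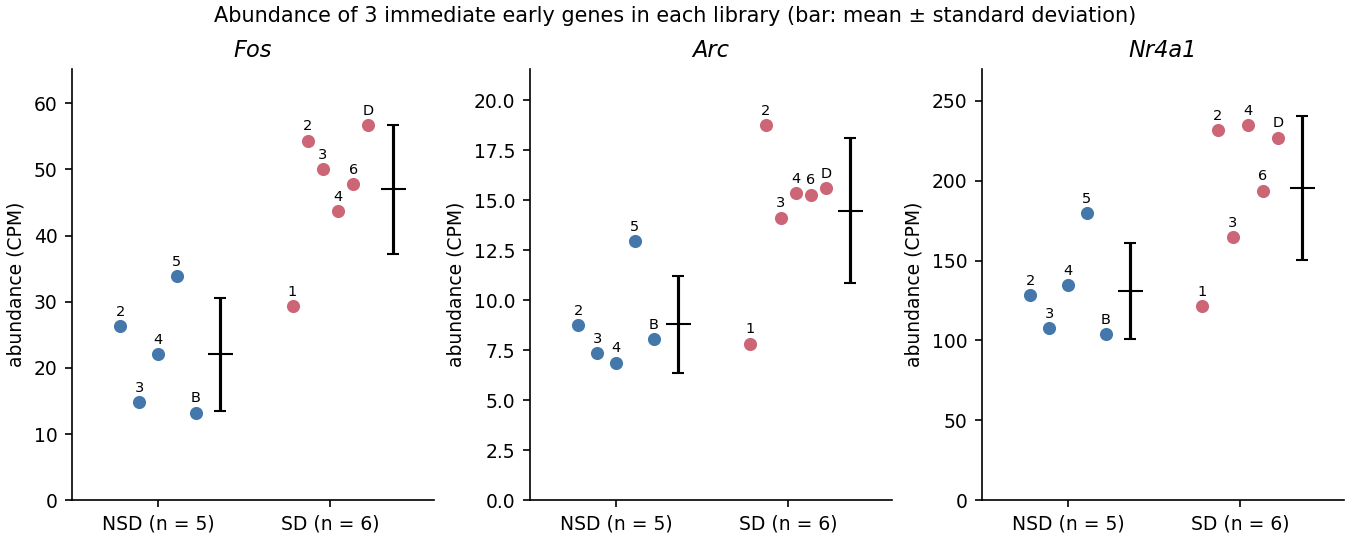
Abundance of Fos, Arc and Nr4a1 in CPM (linear axes from 0) in each NSD (blue) and SD (red) library, each point marked with the number or letter of its library, with the group mean and standard deviation as a black bar. In all panels NSD5 is the highest NSD library and SD1 the lowest SD library, and the other SD libraries are above every NSD library except SD3 for Nr4a1.

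The spread within a group is that between pools of mice and holds counting error as a part. For Fos the coefficient of variation was 38.5% in NSD and 20.8% in SD, of which counting reads would give 4.33% and 2.84% if reads were independent molecules, which PCR copies are not. For Arc it was 27.7% and 25.0%, against 6.87% and 5.13% from counting. For Nr4a1 it was 23.0% and 23.2%, against 1.78% and 1.39%. On the log2 scale their standard deviation within groups was 0.46 (Fos), 0.40 (Arc) and 0.35 (Nr4a1), larger than that of 96.3%, 95.6% and 94.7% of the 8235 tested transcripts with a mean of at least 5 CPM, whose median was 0.18.

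Each library was left out in turn, and SD1 moved the call most. Without it, all 3 passed FDR 0.05 by the edgeR quasi-likelihood test, at FDR = 0.00263 for Fos, 0.00752 for Arc and 0.0203 for Nr4a1, while 0.209% of all transcripts passed with a higher level in SD. The log2 fold changes were then 1.20, 0.85 and 0.68. The lowest of the other SD libraries exceeded the highest NSD library for Fos (43.7 against 33.8 CPM) and for Arc (14.1 against 12.9), but not for Nr4a1 (164.5 against 179.5). Such separation of the 5 remaining SD libraries from all NSD libraries occurred in 1.34% of all transcripts, and separation of all 6 in 0.459%. The exact permutation p without SD1 was 0.00794 for Fos and Arc, the smallest that 5 against 5 libraries allow, and 0.0159 for Nr4a1. Without NSD5, the highest NSD library, Fos alone passed (edgeR, FDR = 0.0313), among 0.0338% of all transcripts. SD1 and NSD5 are singled out here after their values were seen, to show how the call rests on single libraries.

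Other tools and filters moved the call as well. With only the test changed, to edgeR's likelihood ratio test, Fos passed (FDR = 0.000541) and Arc (FDR = 0.109) and Nr4a1 (FDR = 0.141) did not, with 0.125% of all transcripts higher in SD. DESeq2 changed the scaling and the test together, and by default it also leaves some low-count transcripts out of the adjustment. It gave FDR = 0.00617 for Fos, 0.0238 for Arc and 0.0496 for Nr4a1, with 0.314% of all transcripts higher in SD. limma voom, which also weights the libraries by their quality, passed all 3, at FDR = 0.00264, 0.0276 and 0.0314, with 0.159% of transcripts. With the filter of edgeR's filterByExpr only Fos passed (FDR = 0.0395), where 0.686% of 19228 transcripts were higher. With the share of reads outside annotated features as a covariate all 3 passed (FDR = 0.000456, 0.0322 and 0.048) among 0.287% of transcripts, and the first principal component in that place gave 5.77e-06, 0.000272 and 0.000525 among 1.66% of transcripts. The estimates themselves moved little under the covariates, to 1.07, 0.62 and 0.49 for the reads outside features.

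The differences were smaller without either of 2 other pairs of libraries. Without NSD4 and NSDB, the NSD libraries with the most inhibitory marker signal (a set chosen after the data were seen), the log2 fold changes were 0.91 for Fos, 0.58 for Arc and 0.50 for Nr4a1, and none of them passed FDR 0.05 (edgeR, FDR = 0.757 for Fos). The share of all transcripts that passed with a higher level in SD was then 0%, with 523 higher at an unadjusted p under 0.05. The exact permutation p was then 0.0238 for Fos, 0.0833 for Arc and 0.131 for Nr4a1. Without NSDB and SDD, whose labels carry letters, the log2 fold changes were 0.89, 0.67 and 0.46 (edgeR, FDR = 0.668 for Fos), and again no transcript was past FDR 0.05, with 515 higher at an unadjusted p under 0.05. The direction was the same in all 25 alternatives for each gene, over a range of 0.89 to 1.35 for Fos, 0.58 to 1.07 for Arc and 0.46 to 0.77 for Nr4a1.

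**Figure D2:**
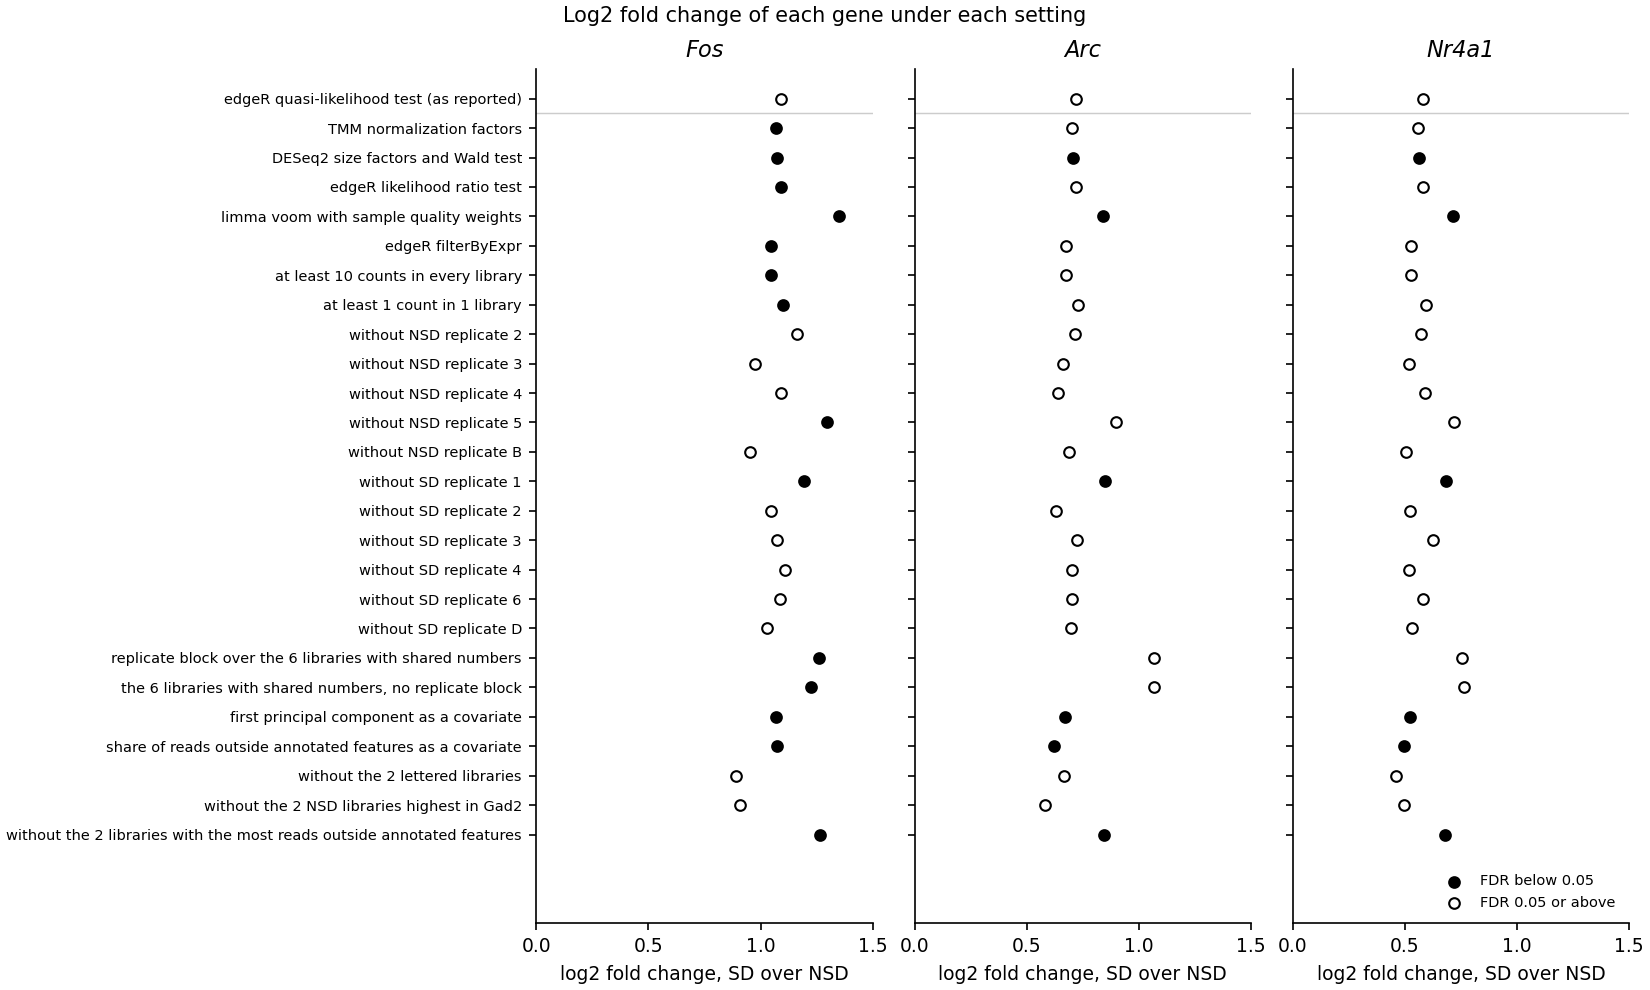
Log2 fold change of SD over NSD (linear axis from 0) for Fos, Arc and Nr4a1 under the reported test, above the grey line, and under each of 25 alternatives, with filled points for an FDR below 0.05. All points lie above 0, and all 3 genes are filled with DESeq2, voom, both covariates, without SD1 and without SD1 and NSD2.

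Did the genes differ by the same amount? The ratio of a pair of genes within a library does not depend on how that library was scaled, and it was compared between the groups by a two-sided exact permutation test with Benjamini-Hochberg adjustment over 3 pairs. Fos differed more than Nr4a1. Their log2 ratio in NSD was -2.28 in NSD2, -2.86 in NSD3, -2.61 in NSD4, -2.40 in NSD5 and -2.97 in NSDB. In SD it was -2.04 in SD1, -2.09 in SD2, -1.72 in SD3, -2.42 in SD4, -2.02 in SD6 and -2.001 in SDD, so that only SD4 was within the range of NSD. The mean went from -2.62 ± 0.292 to -2.05 ± 0.226, a difference of 0.58 with a standard error of 0.160, or 1.49-fold (exact p = 0.00866, adjusted 0.026).

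The library SD1, which was low for each gene on its own, had a ratio of Fos to Nr4a1 close to the SD mean. The difference between the groups was 0.58 without SD1 (exact p = 0.0238) and 0.49 to 0.66 with any 1 library left out, with an exact p of at most 0.0238. The ratio of Fos to Arc averaged 1.27 ± 0.405 in NSD and 1.71 ± 0.172 in SD on the log2 scale, a difference of 0.44 with a standard error of 0.194 (exact p = 0.0346, adjusted 0.0519). Its NSD values ran from 0.71 in NSDB to 1.67 in NSD4 and overlapped the SD values of 1.504 to 1.899. Arc and Nr4a1 had a difference of 0.14 with a standard error of 0.124 (exact p = 0.299, adjusted 0.299), from -3.89 ± 0.227 in NSD to -3.76 ± 0.174 in SD, and the groups overlapped.

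**Figure D3:**
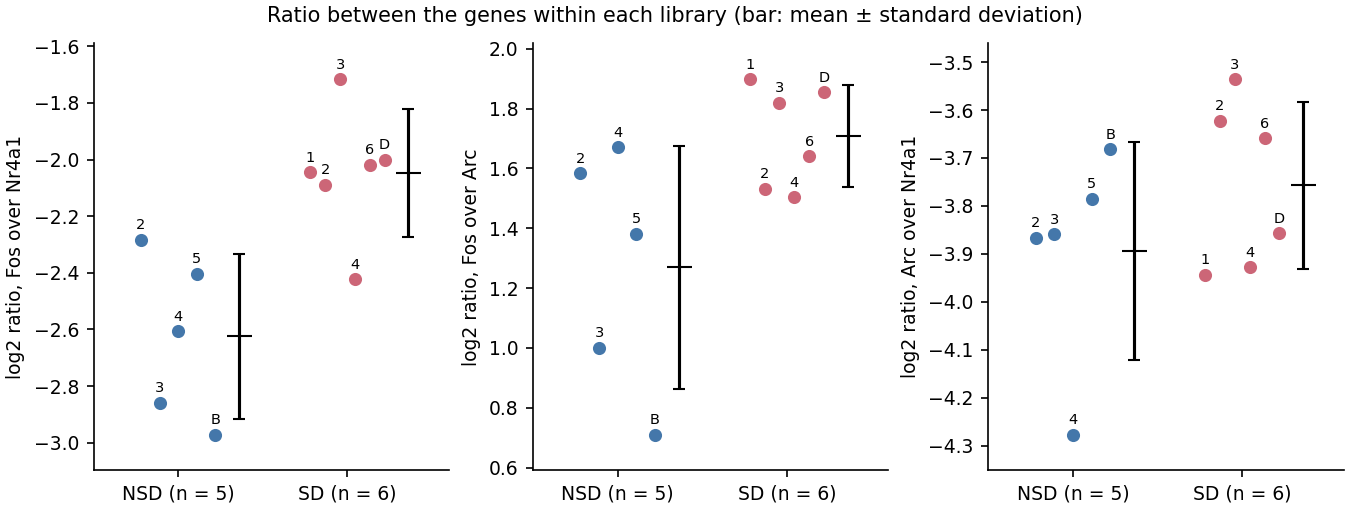
Log2 ratio of the CPM of Fos over Nr4a1, Fos over Arc and Arc over Nr4a1 within each NSD (blue) and SD (red) library, with the group mean and standard deviation as a black bar and an axis that does not start at 0. SD1 has a Fos over Nr4a1 ratio of -2.04, near the SD mean of -2.05, and SD4 is the only SD library inside the NSD range.

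Whether the genes moved together from library to library was asked after subtracting the mean of each group, so that the difference between SD and NSD did not enter. Over the 11 libraries all 3 pairs were positively related. For Fos and Arc, Pearson's r was 0.763 (permutation p = 0.00973, adjusted over 3 pairs 0.00973) and Spearman's rho 0.682 (p = 0.0232 by permutation, adjusted 0.0349). For Fos and Nr4a1, r was 0.827 (permutation p = 0.00236, adjusted 0.00708) and rho 0.655 (p = 0.042 by permutation, adjusted 0.042). For Arc and Nr4a1, r was 0.867 (permutation p = 0.00645, adjusted 0.00967) and rho 0.827 (p = 0.0056 by permutation, adjusted 0.0168). NSD5 was high and SD1 low for every gene, at the corners of each panel of the plot of deviations.

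The relation was then computed over 9 libraries. Without the 2 libraries whose deviation of the first gene was farthest from the median, r was 0.753 for Fos and Arc without NSDB and SD1 (permutation p = 0.138), 0.688 for Fos and Nr4a1 without the same libraries (permutation p = 0.0948) and 0.354 for Arc and Nr4a1 without SD1 and NSD5 (permutation p = 0.379). None of the 3 was past 0.05 without those libraries, where fewer pairings are possible. For Fos and Arc, r itself was close to the 0.763 over all 11. With the same libraries left out of every pair, SD1 and NSD5 (a set chosen after the data were seen), r was 0.232 for Fos and Arc (permutation p = 0.582), 0.539 for Fos and Nr4a1 (permutation p = 0.152) and 0.354 for Arc and Nr4a1 (permutation p = 0.379). These 2 libraries lie at the ends of each pair, so a lower r without them follows in part from how they were chosen. Chosen instead by the level before the group mean was subtracted, the libraries left out were all NSD, and all 3 pairs stayed past 0.05. There r was 0.944 for Fos and Arc (permutation p = 0.00694) and 0.809 for Fos and Nr4a1 (permutation p = 0.025). For Arc and Nr4a1 it was 0.927 (permutation p = 0.00139). Within the 6 SD libraries alone, SD1 included, r was 0.926 (permutation p = 0.0417), 0.804 (permutation p = 0.0681) and 0.917 (permutation p = 0.00833) for the same pairs.

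**Figure D4:**
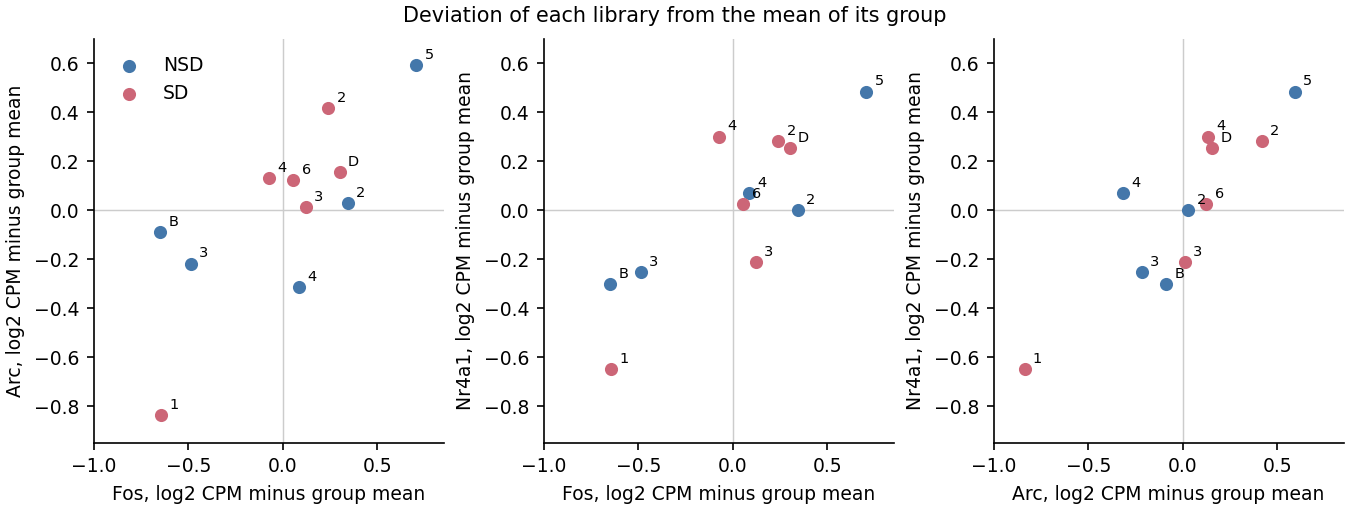
Deviation of each library from the mean of its group in log2 CPM, for the 3 pairs of genes, with NSD in blue and SD in red and the library number or letter beside each point. NSD5 is at the upper right and SD1 at the lower left of each panel, and the libraries between them are more scattered, with an r of 0.232 for Fos and Arc, 0.539 for Fos and Nr4a1 and 0.354 for Arc and Nr4a1 once both are left out.

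Properties of the libraries moved with some of the genes. Within groups, the correlation with the share of reads outside annotated features was -0.04 for Fos, -0.49 for Arc and -0.45 for Nr4a1, where the median of the 8235 transcripts with at least 5 CPM was -0.74. With the upper-quartile scaling factor it was -0.28, -0.77 and -0.67. These are descriptions over 11 libraries, and the scaling factor enters the CPM itself. With the share of reads outside features removed beside the group means, r between the genes was 0.855 for Fos and Arc, 0.909 for Fos and Nr4a1 and 0.830 for Arc and Nr4a1. With the first principal component removed it was 0.855, 0.903 and 0.777.

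For each gene, the transcripts most like it in their deviations within groups were taken from 1427 named transcripts among 8234 others with at least 5 CPM, over 11 libraries that share the same depth and scaling for all genes, and likeness is described without a test. Closest to Fos were Ago4, an Argonaute protein, at r = 0.90 and rank 2 of all, Nr4a1 at 0.83 and rank 6, and Trib1, a Tribbles pseudokinase, at 0.81 and rank 7. Closest to Arc were Trib1 at 0.95 and rank 1, Lrch1 at 0.95 and rank 3, and Cnpy4 at 0.94 and rank 6. Closest to Nr4a1 were Dll1, a Notch ligand, at 0.96 and rank 2, Dusp6, a phosphatase of ERK, at 0.94 and rank 3, and Junb, a partner of Fos in AP-1, at 0.93 and rank 4.

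The likeness was not mutual in rank. Arc was 11th in the order for Fos, while Fos was only 1170th in the order for Arc, with the same r of 0.763. For Nr4a1, Arc was 30th and Fos 83rd, and Nr4a1 was 66th in the order for Arc.

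Other activity-regulated genes were taken from a list of 50. Of these, 24 had a named transcript (26 transcripts in all) and 26 had none. Names could be given mainly to transcripts with small p values in these same data, so the counts that follow are selected for difference between the groups. The log2 fold change was above 0 in 22 and below 0 in 4, with a median of 0.34, where the median of all transcripts tested was 0.01. By the edgeR quasi-likelihood test, 1 transcript passed FDR 0.05, Homer1 uc007rlb.3, and at an unadjusted p under 0.05 there were 14 higher and 1 lower. Over all 29599 transcripts the shares higher in SD were 0.0439% and 2.54%, and 1.91% (564) were lower at an unadjusted p under 0.05. No transcript of the list had a log2 fold change as large as that of Fos.

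Among the transcription factors, Fosb, a relative of Fos, ran from 8.11 to 12.02 CPM in NSD and from 10.8 to 16.6 in SD, a log2 fold change of 0.46 with a standard error of 0.127 (edgeR, FDR = 0.395). Junb ran from 46.0 to 81.9 CPM in NSD and 52.5 to 88.6 in SD (log2 fold change 0.33, standard error 0.143). The MAP kinase phosphatases, which are induced by the signalling they end, had values of 0.53 for Dusp1 (edgeR, FDR = 0.0953), 0.45 for Dusp5 and 0.35 for Dusp6. Of the signalling regulators, Trib1 was at 0.60 with a standard error of 0.159 (edgeR, FDR = 0.328), and Inhba, an activin subunit, at 0.45. None of these passed FDR 0.05.

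Homer1 uc007rlb.3, a transcript of the postsynaptic scaffold gene, ran from 28.2 to 33.9 CPM in NSD and from 39.5 to 65.4 in SD without overlap, a log2 fold change of 0.78 with a standard error of 0.119 (edgeR, FDR = 0.0139). Its SD1 library stood at 49.5 CPM, in the middle of the SD libraries, and its deviations within groups had an r of 0.16 with Fos, 0.30 with Arc and 0.17 with Nr4a1. As for the 3 genes, NSD5 was its highest NSD library, at 33.9 CPM. The 4 transcripts with a log2 fold change below 0 were 1 of Bdnf at -0.25, Rgs2 at -0.11, and both of the clock gene Per1, uc007jpf.1 at -0.64 (edgeR, FDR = 0.238) and uc007jpg.2 at -0.07.

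Across the list NSD5 was the highest NSD library for 20 of 26 transcripts, where it was so for 46.1% of all transcripts with at least 5 CPM. SD1 was the lowest SD library for 19 of 26, where the share over all such transcripts was 74.4%. Of the 19 listed transcripts with at least 5 CPM themselves, NSD5 was the highest NSD library for 17 and SD1 the lowest SD library for 17. The list was not tested against these shares.

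The promoter windows of the list were searched for the same letters as those of Fos and Nr4a1. RefSeq windows were found for 19 of the named genes, 27 windows in all, and TGACG was in 14 of them (51.9%), against 20.8% of all windows. The full palindrome TGACGTCA was in 3 (11.1%), TATAAA in 4 (14.8%) and the CArG box in 1 (3.7%), and AAAGGTCA in none. Windows of 1 gene share sequence, and base composition was not matched, so these shares are descriptions.

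**Figure D5:**
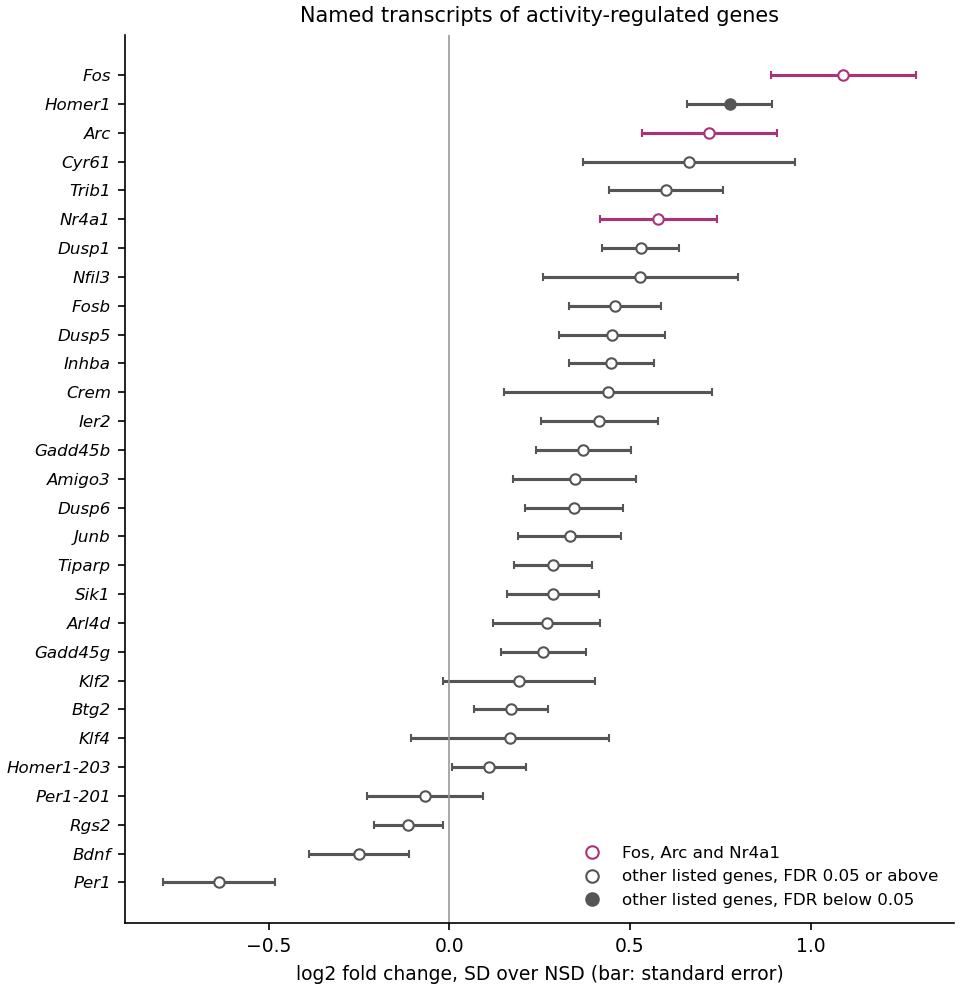
Log2 fold change of SD over NSD with its standard error for Fos, Arc and Nr4a1 (purple) and the 26 named transcripts of other activity-regulated genes (grey), filled where the FDR was below 0.05. Fos is the highest, the filled point is Homer1 at 0.78, and 4 listed transcripts are below 0.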

How the data were processed

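Ribosome-associated RNA from 11 libraries was prepared with a stranded total RNA kit and sequenced by the authors. Per the submitters' processing notes, Trimmomatic 0.36, STAR 2.7.5 and HTSeq were used on mm10. The authors deposited raw counts, not normalized, for 63244 UCSC transcripts, and 5 tallies of uncounted reads that were left out here. The use of strand in counting is not given in the sources used here. Columns headed SID were matched to titles beginning SD by number or letter.

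A transcript was kept when 5 or more libraries held 1 or more counts of it. After upper-quartile scaling, SD was tested against NSD with the quasi-likelihood test of edgeR 4.0.16 in R 4.3.3, using Benjamini-Hochberg adjustment over 29599 transcripts at FDR 0.05. CPM were computed with these factors, and a prior count of 2 was added on the log2 scale. Permutation tests covered all divisions of the libraries or, for correlations, all 86400 pairings within groups. All tests were two-sided. Alternatives used TMM, DESeq2 1.42.0, limma 3.58.1, other filters, covariates, a replicate block and fewer libraries. Python 3.11.15 was used for permutations and figures. On simulated data for SD against NSD, the edgeR test called 151 of 200 transcripts changed by 0.6 on the log2 scale and 7 unchanged ones, of 29057 tested. Simulated counts were drawn independently for each transcript, with no shift shared across a library, and the changed transcripts were picked at random. Fos, Arc and Nr4a1 varied more within groups than most transcripts, so the simulation does not give the chance of calling them.

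The 3 genes and all gene lists were chosen with earlier results of these data known. The text names these genes, listed activity-regulated genes, markers, and for each of the 3 the 3 named transcripts with the highest r. Other names come from lists published with the study, matched to 2258 transcripts by their statistics, and the authors' comparison columns served no other use.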

Additional observations from a re-analysis of the deposited data

Results flagged for a closer look

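In groups of 5 or 6 libraries, 6 of 70 sets of values examined had a highest or lowest library far from the others by Dixon's criterion, which chance alone meets in about 1 of 20 sets. None of the 6 concerned Fos, Arc or Nr4a1 themselves. Among their relatives, Fosb was at 16.6 CPM in SD2, above the other SD libraries, and Dusp1 was at 21.98 CPM in SD1, below them. In NSD5, the library in which Fos, Arc and Nr4a1 were also highest of NSD, Dusp6 was at 295.2 CPM and Tiparp at 42.7 CPM, each above the other NSD libraries. The share of reads with no unique alignment was 12.3% in NSD2, above the other NSD libraries, and NSD2 also had the largest share of reads outside annotated features. The summed inhibitory neuron markers were at 46.8 CPM in SD2, above the other SD libraries, and SD2 was the highest library for Arc.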

How the results depend on the processing

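Fos, Arc and Nr4a1 kept their direction under all 25 alternatives each. Those that passed FDR 0.05 where the reported test did not gave, for Fos, 1.07 with TMM (1 gene past), 1.08 with DESeq2 (3 genes), 1.09 with the likelihood ratio test (1), 1.35 with voom (3), 1.05 with filterByExpr (1), 1.05 with at least 10 counts in every library (1), 1.10 with at least 1 count in 1 library (1), 1.07 with the first principal component (3), 1.07 with the share of reads outside features (3) and, chosen after seeing the data, 1.27 without the 2 libraries with the most such reads (3). Arc passed at 0.71 with DESeq2, 0.84 with voom, 0.67 with the first principal component, 0.62 with the share of reads outside features and 0.85 without those 2 libraries, and Nr4a1 at 0.56, 0.71, 0.52, 0.49 and 0.68 in the same order. With any 1 library left out, the log2 fold change ran from 0.95 to 1.30 for Fos, 0.63 to 0.90 for Arc and 0.51 to 0.72 for Nr4a1, and 0 to 3 genes passed: all 3 without SD1, and Fos alone without NSD5 (FDR = 0.0313). The cause of these changes of call was not tested.

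Over the 6 libraries with shared numbers, the replicate block gave 1.26 for Fos, 1.07 for Arc and 0.75 for Nr4a1. It passed 1 of these genes at FDR 0.05, where 4 of 29598 transcripts were higher and 2 lower. The same libraries without the block gave 1.23 for Fos, also with 1 gene past, where 3 of 29598 transcripts were higher and 0 lower. Deviations of same-numbered libraries had a mean r of -0.30, from only 3 pairs. Single pairs of differently numbered libraries ranged from -0.43 (NSD5 and SD1) to 0.42 (NSD4 and SD1). The mean lies inside that range, so it cannot show whether same-numbered libraries had more than a number in common. The within-group correlation ran from 0.653 to 0.851 for Fos and Arc with 1 library left out and was not past 0.05 without SD1 (r = 0.666, permutation p = 0.116). Without the 2 libraries with the most reads outside features it was 0.691 for Fos and Arc and 0.735 for Arc and Nr4a1, neither past 0.05, and 0.801 for Fos and Nr4a1 (permutation p = 0.0361), and without SD1 and NSD5, chosen after seeing the data, it was 0.232 for Fos and Arc, 0.539 for Fos and Nr4a1 and 0.354 for Arc and Nr4a1, none past 0.05. The difference in the ratio of Fos to Arc ran from 0.30 to 0.54 with 1 library left out and passed an unadjusted p of 0.05 in 4 of 11 of these sets. The ratio of Fos to Nr4a1 passed in all 11. Of the other activity-regulated transcripts, 4 passed in either direction with filterByExpr, 6 with DESeq2 and 2 with TMM, settings that also raised the calls over all transcripts. No alternative varied the depth.

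Over all 29599 transcripts, 13 were higher and 2 lower past FDR 0.05 in the reported test, 51 and 11 with TMM, 93 and 42 with DESeq2, 132 and 59 of 19228 with filterByExpr, and 62 and 7 without SD1. With at least 10 counts in every library they were 200 and 111 of 15757, and with at least 1 count in 1 library 11 and 22 of 35175. Without the 2 libraries with the most reads outside features they were 32 and 14 of 29599.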
